A study of Mus musculus with 12 samples.

Results

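The suppressor of cytokine signaling (SOCS) family was followed in cultured mouse hepatocytes during the first hours of TGF-β1 treatment. Its members are Socs1 to Socs7 and Cish, and they were taken as the probe sets that the array annotation pairs with exactly 1 gene symbol when that symbol is 1 of these 8. This gave 12 of 21789 probe sets and 8 of 19938 genes, with 2 probe sets each for Socs2 and Socs3, 3 for Socs6 and 1 for each of the others. Total RNA was measured on 12 Affymetrix Mouse Gene ST arrays of primary hepatocytes, the parenchymal cells of the liver, isolated with collagenase from C57BL/6 mice labelled male. Cells were kept in serum-free medium on collagen, and the medium was changed 1 h before stimulation in all cultures. The 4 groups, of 3 arrays each, were untreated controls and cells harvested 20 min, 2 h and 4 h after addition of 1 ng/ml recombinant human TGF-β1. Because untreated cells were taken at the start alone, TGF-β1 and the time since the medium change cannot be told apart. Values are log2 signals after robust multi-array averaging (RMA), in which a difference of 1 is a factor of 2.

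SOCS proteins are feedback inhibitors of cytokine receptors. Cytokines and growth hormone activate JAK kinases and STAT transcription factors, STATs switch on SOCS genes, and the proteins bind phosphotyrosines of the receptors or JAKs through an SH2 domain and recruit an elongin and cullin 5 ubiquitin ligase through the C-terminal SOCS box. In liver, Socs2 and Cish are known as STAT5 targets that restrain growth hormone signaling, Socs3 as the STAT3 target that limits interleukin 6 signaling and the acute phase response, and Socs1 as an inhibitor of interferon signaling.

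The sequence that STAT dimers bind is the palindrome TTCNNNGAA, and it is shown here for the members in which it lies next to an annotated start. RefSeq windows of GRCm38.p6, from 250 bases before to 50 after a transcript start, were used for 4 members (Cish, Socs1, Socs3 and Socs4). The other 4 were not searched. Of all 32851 windows, 8.3% hold the palindrome, which reads the same on both strands, and 0.457% hold it at least 2 times. Cish has 2 copies that begin at the annotated start and Socs3 has 1 copy upstream of it, while the Socs1 and Socs4 windows have 0. The stretches are given 5′ to 3′ with the palindrome in capitals, on the plus strand for Cish at chr9:107296654-107296683 and on the minus strand for Socs3 at chr11:117969502-117969531, a window that lies inside the longest extent of the gene.
Cish: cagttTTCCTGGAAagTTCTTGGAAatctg
Socs3: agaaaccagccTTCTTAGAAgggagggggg
A match describes these letters and is not evidence of binding. The SMAD palindrome GTCTAGAC was found in 0 of the 4 windows and in 0.213% of all windows, and the shorter SMAD element CAGAC, searched on both strands, in the Socs4 window and in 49.6% of all windows.

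The arrays fell into 2 sets that go against the labels. Xist, the RNA of the inactive X chromosome, read 12.7 to 12.9 on all 8 arrays of replicates 2 and 3 and 5.82 to 6.37 on the 4 arrays of replicate 1. The Y-linked gene Eif2s3y read 8.14 to 9.06 in replicate 1 and 4.53 to 4.69 in replicates 2 and 3, and Kdm5d and Uty were split in the same way. Liver genes known to be male-biased, such as Cyp4a12a (12.7 to 13.0 against 4.71 to 4.96), and female-biased, such as Cyp2b9 (6.16 to 6.33 against 12.0 to 12.2), were split along with them. The label male matches the transcripts of replicate 1 and goes against those of replicates 2 and 3. These genes were looked at after the values were seen. Each time point holds 1 array of each replicate number, and the comparisons below were made within replicate numbers.

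The hepatocyte label was met by its markers. The 8 hepatocyte markers, among them Alb and Apoa1, had a mean signal of 13.8 to 13.9 on every array. Of 12 macrophage markers, 6 fell at 4 h, beside 3.02% of all tested probe sets. In the other marker lists 1 of 8 hepatocyte, 1 of 9 stellate cell and 1 of 8 sinusoidal endothelial markers fell. Of 5 cholangiocyte and 7 lymphocyte markers 0 fell, and 0 markers of any list rose. The mean signal of the macrophage markers ranged from 7.66 to 7.80 in controls and from 7.59 to 7.81 at 20 min. It ranged from 7.46 to 7.53 at 2 h and from 7.31 to 7.35 at 4 h. In bulk RNA, fewer cells of a type and less RNA per cell cannot be told apart. The part of this shift in the results below was not tested. The array medians lay between 6.82 and 6.93.

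Socs2 was the only family member called after 4 h of TGF-β1, and both of its probe sets rose. A probe set was called at an adjusted p under 0.05 (limma, Benjamini-Hochberg over the 21789 tested). By this rule 1 of 8 members and 2 of 12 probe sets were called at 4 h against untreated cells, where the share over all tested probe sets was 4.59%, or 1.57% for rising ones. The remaining 10 probe sets had changes between -0.16 and 0.46, with 95% intervals that reached from -0.47 to 0.80.

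The brighter Socs2 probe set, 10394674, read 9.68, 9.54 and 9.68 in the untreated replicates 1, 2 and 3, 9.58, 9.41 and 9.69 at 20 min, 9.93, 9.86 and 10.72 at 2 h, and 10.32, 11.35 and 11.00 at 4 h. All 4 h arrays lay above all untreated arrays, and replicate 3 was already high at 2 h, whereas replicate 2 was high at 4 h only. At 4 h the change was 1.26 ± 0.22 (SE, n = 3 pairs), a 2.39-fold rise with a 95% interval of 1.72 to 3.32 (limma, adjusted p = 0.00938). With this probe set Socs2 also met a stricter rule, a 2-fold change at an adjusted p below 0.01, which 0.0964% of all probe sets met. The share of all probe sets whose 4 h arrays all lay above the untreated ones was 5.43%.

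The other Socs2 probe set, 10372069, read 7.96, 7.77 and 7.80 in untreated cells, 8.27, 7.72 and 7.92 at 20 min, 8.20, 7.92 and 8.10 at 2 h, and 8.44, 8.46 and 8.39 at 4 h. The 4 h arrays lay close together and above every untreated array, as in 5.43% of all tested probe sets. The change was 0.58 ± 0.09 (SE, n = 3 pairs), a 1.5-fold rise with a 95% interval of 1.31 to 1.72 (limma, adjusted p = 0.00552). The direction was the same in 3 of 3 replicates for both probe sets, and the sizes differed, with the change in the brighter probe set being the larger.

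The Socs2 rise was seen in both sets of arrays. Replicate 1, the pair with Y-linked transcripts and without a replicate of its own, differed by 0.64 and 0.47 in the 2 probe sets. Without replicate 1 the changes were 1.57 (limma, adjusted p = 0.00494) and 0.64 (adjusted p = 0.00459). The calls needed both replicates 2 and 3, for without replicate 2 the changes were 0.98 (adjusted p = 0.0637) and 0.53 (adjusted p = 0.0606), and without replicate 3 they were 1.23 (adjusted p = 0.130) and 0.58 (adjusted p = 0.142). In these fits the calls over all probe sets dropped as well, to 29 higher and 72 lower without replicate 2 and to 16 and 16 without replicate 3, from 343 and 657.

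At the earlier times the Socs2 differences were smaller. At 2 h the 2 probe sets differed from untreated cells by 0.53 (unadjusted p = 0.0302, limma adjusted p = 0.716) and 0.23 (unadjusted p = 0.0258, adjusted p = 0.692), higher in 3 of 3 replicates each, and at 20 min by -0.07 and 0.13. From 2 h to 4 h they differed by 0.72 (limma, adjusted p = 0.256) and 0.35 (adjusted p = 0.168), again higher in 3 of 3 replicates. None of these passed the adjusted threshold. The moderated F test over the time course called both, at adjusted p values of 0.0283 and 0.0314, in a test that called 1.4% of all probe sets.

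Socs2 lies at chr10:95383903-95417321 (GRCm38.p6), and its probe sets are annotated with transcripts of that gene. The platform numbers probe sets largely in chromosomal order, and the neighbours in this order fit the gene for 1 of them only. Around 10372069, 19 of the 20 nearest named neighbours are genes of chromosome 10, whereas around 10394674, 17 of 20 are genes of chromosome 12 and 0 of chromosome 10. Whether 10394674 also takes up RNA from another locus was not tested, as the probe sequences were not used here. Probe set 10372069 was called by itself. The counts of called members, which use the brightest probe set of a gene, and the stricter 2-fold call rest on 10394674.

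**Figure D1:**
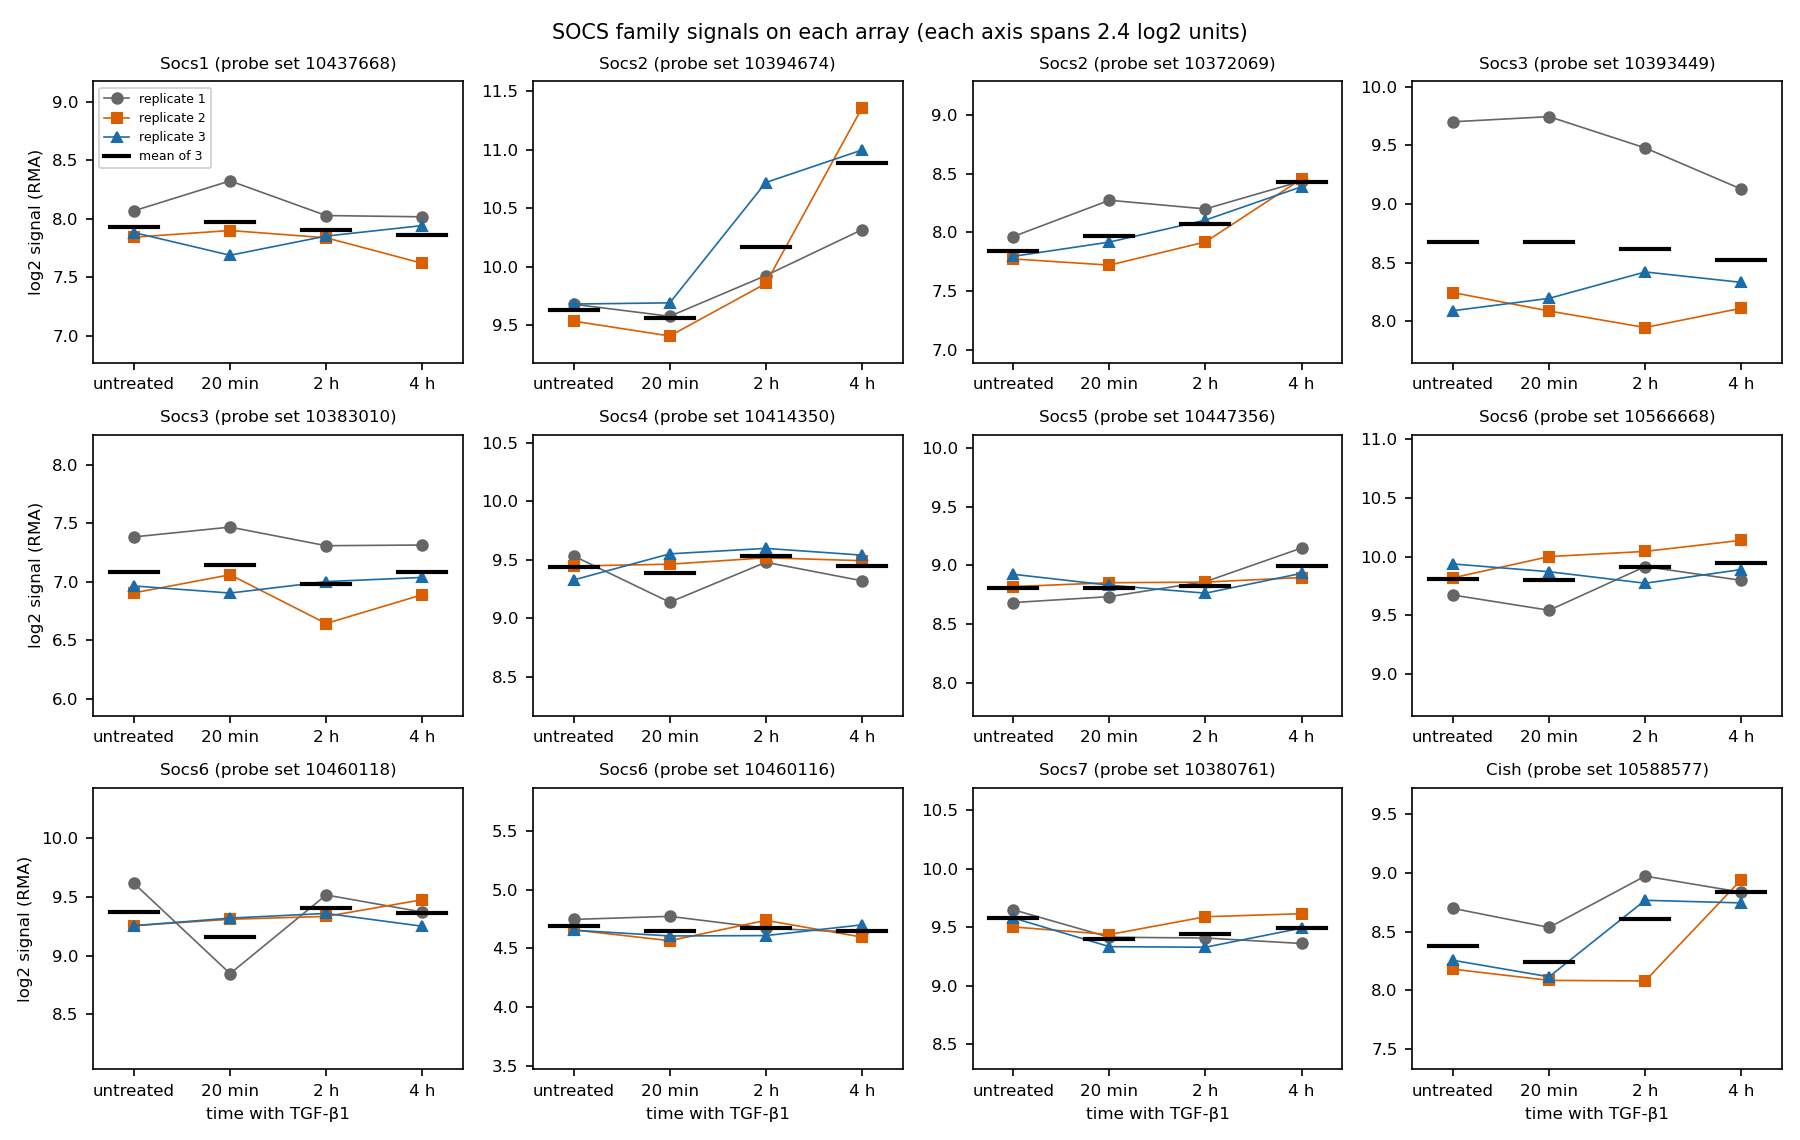
Log2 RMA signal (vertical axis, each spanning 2.4 units) of the 12 SOCS family probe sets against time with TGF-β1 (horizontal axis), 1 symbol and line per replicate number and a black bar for the mean of 3. Both Socs2 panels climb to 4 h in all 3 replicates. Cish climbs between 2 h and 4 h in replicate 2, and between 20 min and 2 h in replicates 1 and 3. The upper Socs3 line at every time point is replicate 1.

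Cish, the other STAT5-induced inhibitor of growth hormone signaling, was higher at 4 h in every replicate, as Socs2 was, but missed the threshold. Its probe set read 8.70, 8.18 and 8.25 in untreated cells, 8.54, 8.08 and 8.11 at 20 min, 8.97, 8.08 and 8.77 at 2 h, and 8.84, 8.94 and 8.74 at 4 h. All 4 h arrays lay above all untreated ones, as in 5.43% of all tested probe sets. Untreated replicate 1 (8.70) was just below the lowest 4 h array (8.74), and replicate 2 was below its untreated value at 2 h. The 4 h change was 0.46 ± 0.15 (SE, n = 3 pairs; 95% interval 0.13 to 0.80; limma, unadjusted p = 0.0103, adjusted p = 0.120), higher in 3 of 3 replicates. Over the alternative fits its adjusted p ranged from 0.0252 to 0.921. It was called with array weights (0.51, adjusted p = 0.0252) and when the 2 h array of replicate 2 was left out (adjusted p = 0.0300), and without replicate 1 the change was 0.63 (adjusted p = 0.0688). Array weights raised the calls over all tested probe sets to 695 higher and 1104 lower, from 343 and 657. Without the 2 h array of replicate 2 they were 379 and 679, and without replicate 1 they were 492 and 493. The Cish gene spans chr9:107296659-107302784, and the 2 STAT palindromes shown above are its first bases.

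After each replicate's own mean was subtracted, the profile of Cish over the 12 arrays followed that of Socs2, with a Pearson correlation of 0.94 to probe set 10394674 and 0.79 to 10372069, and the 2 Socs2 probe sets correlated at 0.93. These coefficients describe 12 arrays from 3 replicate numbers and carry no test. The same measure singled out the genes most like Socs2 among all tested probe sets. For 10394674 they were the chromatin remodeller Chd3 (0.98), the serpin Serpinb8 (0.98), the adhesion protein Igsf11 (0.97), the actin regulator Baiap2l1 (0.97) and the RNA-binding protein Zfp36l2 (0.97). For 10372069 they were the glycosyltransferase Mgat1 (0.97), the interleukin 22 receptor subunit Il22ra1 (0.97), the vesicle protein Vamp5 (0.97), Serpinb8 again (0.97) and the transcription factor Ets1 (0.96). All of these rose at 4 h, by 0.40 for Igsf11 at the low end and 1.25 for this Il22ra1 probe set at the high end. They were picked for likeness to profiles that rise at 4 h, so their rise follows from the choice.

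**Figure D2:**
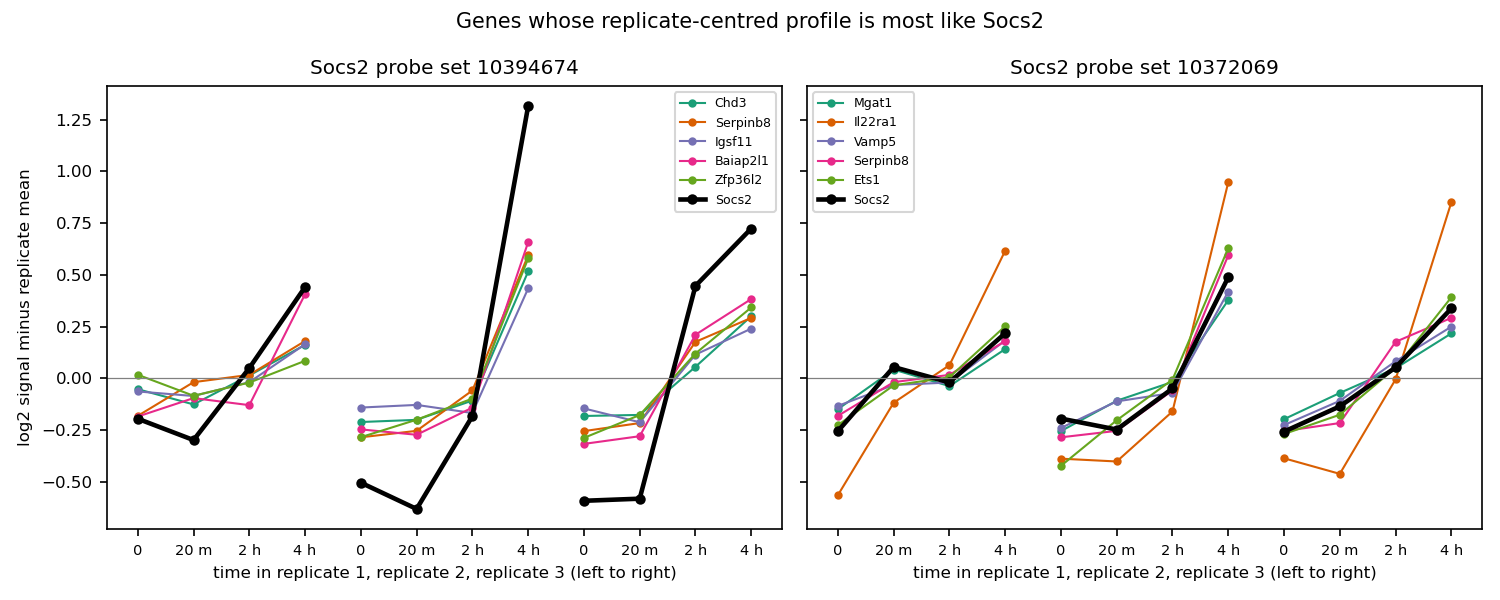
Log2 signal minus the mean of the same replicate (vertical axis) on the 12 arrays, ordered by replicate and time (horizontal axis), for each Socs2 probe set (black) and the 5 genes with the highest correlation to it (colours). In replicate 2 the black line of probe set 10394674 stays low to 20 min and jumps between 2 h and 4 h, and in replicate 3 most of its rise falls between 20 min and 2 h.

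Socs3 and Socs1, whose proteins block the catalytic site of JAK kinases, were not called at any time. The brighter Socs3 probe set, 10393449, read 9.70, 8.24 and 8.09 in untreated cells, 9.75, 8.09 and 8.19 at 20 min, 9.48, 7.95 and 8.42 at 2 h, and 9.13, 8.11 and 8.33 at 4 h. The spread here lay between replicate numbers and not between time points: replicate 1 was high at every time. At 4 h the change was -0.16 ± 0.14 (SE, n = 3 pairs; 95% interval -0.47 to 0.16; limma, adjusted p = 0.659), with replicate 1 lower by 0.57 and replicate 3 higher by 0.24. Without replicate 1 it was 0.05. The other Socs3 probe set, 10383010, differed by 0.06 at 20 min, -0.10 at 2 h and -0.0043 at 4 h, the last with a 95% interval of -0.19 to 0.18. Socs1 read 8.07, 7.84 and 7.88 in untreated cells and 8.02, 7.62 and 7.94 at 4 h, a change of -0.07 ± 0.10 (SE, n = 3 pairs; 95% interval -0.29 to 0.15; limma, adjusted p = 0.797).

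Replicate 1 held more Socs3 and Socs1 signal than replicates 2 and 3 whatever the time point. Its 4 arrays read 9.13 to 9.75 for Socs3 probe set 10393449 against 7.95 to 8.42 on the other 8, a difference of 1.34, 7.31 to 7.47 against 6.64 to 7.06 for 10383010, and 8.02 to 8.32 against 7.62 to 7.94 for Socs1. The groups did not overlap in these 3 probe sets. Over all tested probe sets, 8.94% had all replicate 1 arrays above the others and 16.1% all below. Cish was higher in replicate 1 by 0.37 with overlap, and Socs2 was lower by 0.28 in 1 probe set and higher by 0.21 in the other. The study's methods describe a strong batch effect among its mouse hepatocyte arrays and do not say which arrays it set apart. Sex-linked transcripts, replicate number and any such batch cannot be told apart here, so the values are given without a test.

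Some other genes of the same pathways were split by replicate number too. Of all tested probe sets, 8.94% lay entirely higher in replicate 1 and 16.1% entirely lower. Of 34 genes induced by STAT3 and interleukin 6, 8 lay entirely higher in replicate 1 and 5 entirely lower, with a median difference of -0.04. The kinase gene Pim1, a STAT target, stood out with 10.6 to 11.5 in replicate 1 against 8.66 to 9.41, while the receptor subunit Il6ra read 10.8 to 11.4 against 11.6 to 11.9. Of 22 genes regulated by STAT5 and growth hormone, 14 lay entirely higher in replicate 1 and 1 entirely lower, with a median difference of 0.77. That list holds male-biased liver genes such as Elovl3 and Hsd3b5, and also the growth hormone receptor Ghr, at 11.5 to 11.8 against 10.6 to 11.1. Of 19 other negative regulators of JAK and STAT signaling, 0 lay entirely higher in replicate 1 and 11 entirely lower. Among 10 elongin and cullin 5 ligase partners, 0 lay entirely higher and 5 entirely lower.

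Socs4 to Socs7, which have long N-terminal regions and are known from epidermal growth factor and insulin receptor signaling, were not called at any time. Socs5 had the largest of these differences at 4 h, with 8.68, 8.82 and 8.92 in untreated cells and 9.15, 8.90 and 8.93 at 4 h. This was 0.18 ± 0.09 (SE, n = 3 pairs; limma, adjusted p = 0.310), and replicate 1 made most of it. Socs4 differed by 0.02 (95% interval -0.19 to 0.22) and Socs7 by -0.09 (95% interval -0.26 to 0.09) at 4 h. At 20 min Socs7 was lower in 3 of 3 replicates, with 9.41, 9.44 and 9.33 against 9.65, 9.50 and 9.58 in untreated cells, a difference of -0.18 ± 0.08 (SE, n = 3 pairs; unadjusted p = 0.0429, limma adjusted p = 0.578).

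The 3 Socs6 probe sets behaved differently among themselves. Probe set 10460116 read 4.57 to 4.77 on all arrays, at percentile 2.58 of the tested probe sets, among the dimmest, and the files hold no detection calls. Probe sets 10460118 and 10566668 changed by -0.01 (95% interval -0.31 to 0.29) and 0.13 (95% interval -0.07 to 0.34) at 4 h. At 20 min, 10460118 was 8.85 in replicate 1 against 9.62 untreated, while replicates 2 and 3 were higher by 0.05 and 0.06. Probe set 10566668 has 20 of 20 neighbours on chromosome 7 and 0 on chromosome 18, where Socs6 lies, and the caution given for the Socs2 probe set holds for it too.

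**Figure D3:**
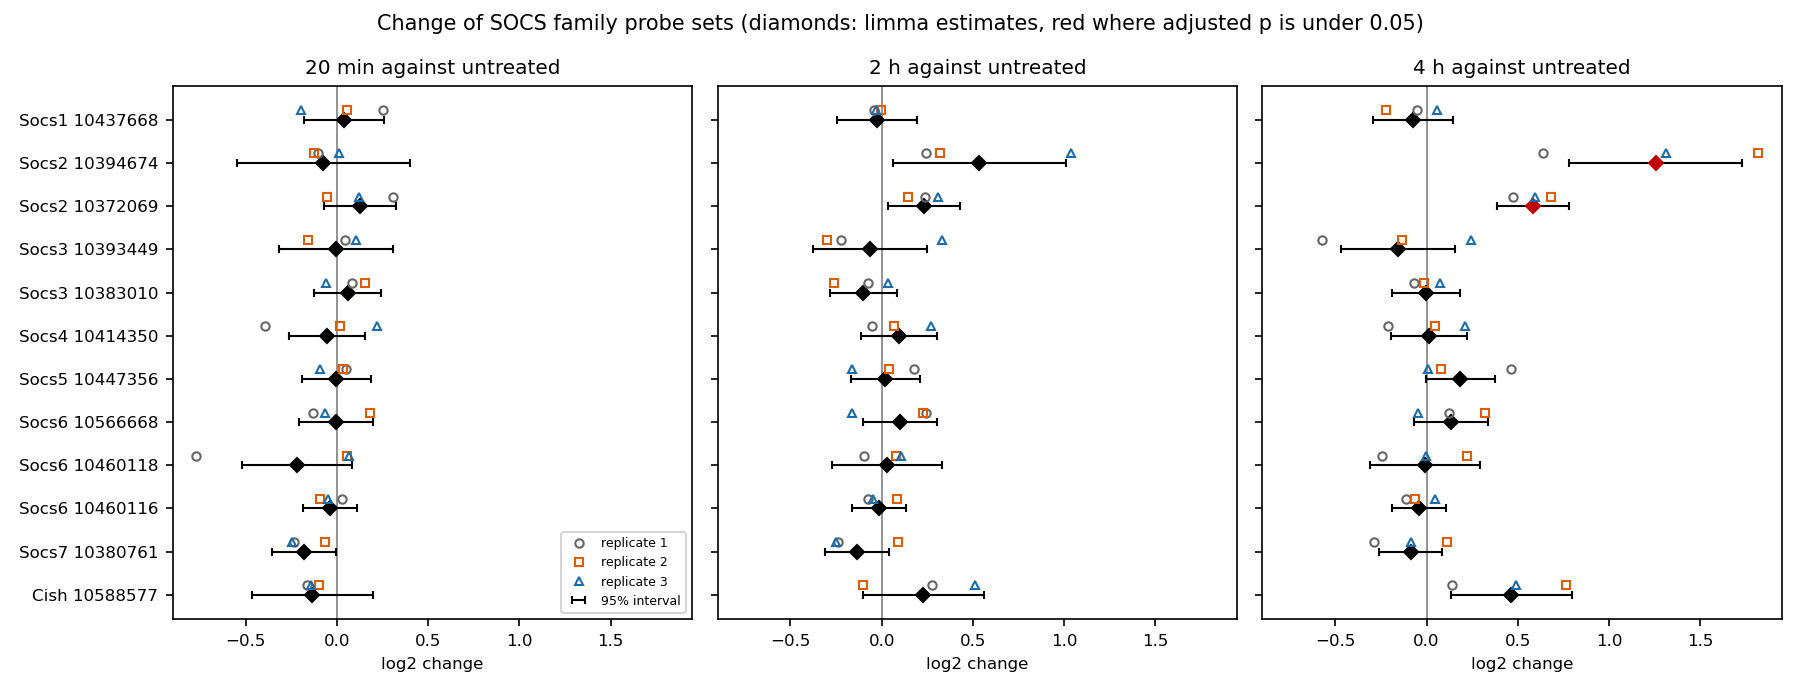
Log2 change against untreated cells (horizontal axis) of the 12 SOCS family probe sets (rows) at 20 min, 2 h and 4 h. Filled diamonds with bars are limma estimates with 95% intervals, red where the adjusted p is under 0.05, and open symbols are the differences within replicates 1, 2 and 3. The only red diamonds are the Socs2 ones at 4 h, and the Cish interval at 4 h lies above 0.

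No member was called by limma at 20 min or 2 h, when 0% of all probe sets were called, or between 2 h and 4 h, when 0.078% were. At an unadjusted p under 0.05 these comparisons held 1, 2 and 2 of the 12 family probe sets, against 8.46%, 6.28% and 8.83% of all probe sets. At 4 h 3 of 12 did, against 17%. The median change of the family at 4 h was 0.01, next to 0.02 for all tested probe sets.

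The pathway around the family was described with 10 lists of 178 measured genes in all, of which 7 rose and 16 fell at 4 h, that is 3.93% and 8.99% beside 1.57% and 3.02% of all tested probe sets. Calls were more frequent among brighter probe sets. In a fit of the 10895 probe sets at or above the median signal, 363 rose and 729 fell. At 20 min and 2 h limma called 0 of the 178 genes. The calls at 4 h were fewer where the replicate number entered as a random effect with an estimated correlation, and those counts follow each list. Over all 21789 tested probe sets, that fit called 89 higher and 136 lower, against 343 and 657 in the main fit. Among 20 receptors that signal through JAK and STAT, 3 rose and 2 fell, against 1 and 0 with the random effect. Il22ra1, the specific subunit of the interleukin 22 receptor, read 7.84, 7.78 and 7.92 in untreated cells and 9.20, 9.92 and 9.54 at 4 h, a rise of 1.71 ± 0.16 (SE, n = 3 pairs; limma, adjusted p = 0.000696). The gp130 subunit Il6st, shared by the interleukin 6 family, rose by 0.33 (adjusted p = 0.0154) and the interleukin 4 receptor Il4ra by 0.45 (adjusted p = 0.0231). The leptin receptor Lepr read 8.76, 9.61 and 9.59 in untreated cells and 7.50, 8.86 and 8.49 at 4 h, and fell by 1.04 on the log2 scale (adjusted p = 0.00302), and Il13ra1 fell by 0.40 (adjusted p = 0.00628). Of 18 cytokines and hormones that use these receptors, 0 were called, and 1 had an unadjusted p under 0.05.

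None of the 3 measured JAK kinases was called, with Jak2 at 0.23 (limma, adjusted p = 0.252), Jak1 at -0.03 and Tyk2 at -0.02. With array weights 1 of the 3 rose, as 1 did when replicate 1 was left out. Over all tested probe sets, 695 rose and 1104 fell with array weights, and 492 and 493 without replicate 1. Of 6 STAT genes analysed here, Stat2, the interferon signaling member, rose by 0.48 (adjusted p = 0.0179), Stat3 fell by 0.35 (adjusted p = 0.0222) and Stat5b fell by 0.38 (adjusted p = 0.0233), each in 3 of 3 replicates. With the random effect 0 of the 6 were called, and likewise 0 without replicate 2 and 0 without replicate 3. When replicate 1 was left out, 1 of the 6 rose and 0 fell. Stat5a was at -0.16 (adjusted p = 0.455), and Stat4 and Stat6 at 0.00 and 0.03. Among 19 other negative regulators, the phosphatase Ptpn11 rose by 0.27 (adjusted p = 0.0330) and the kinase Lrrk1 by 0.54 (adjusted p = 0.0117), and 0 fell, against 0 and 0 with the random effect. The 10 elongin and cullin 5 ligase partners had 0 calls and 2 with an unadjusted p under 0.05, and of 25 other SOCS box proteins Spsb1 rose, by 0.59 (adjusted p = 0.0261), and 0 did with the random effect.

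Most target genes of STAT3 and STAT5 were not called at 4 h. Of the 34 STAT3 and interleukin 6 targets, 8 fell (23.5%, beside 3.02% of all tested probe sets) and 0 rose, with a median change of -0.13. With the random effect 4 fell, and 0 did without the replicate block or without replicate 3. When replicate 1 was left out, 6 fell and 1 rose, while over all tested probe sets 493 fell and 492 rose. The 8 included the metalloreductase Steap4, which fell by 0.71 (limma, adjusted p = 0.00420), the hepatokine Fgl1, the acute phase protein Saa3 and the endotoxin-binding protein Lbp. Well known acute phase genes of high signal were not called, with Lcn2 at 0.01 and Serpina3n at -0.10. Of the 22 STAT5 and growth hormone targets, 2 fell, Igfbp1 by 0.64 (adjusted p = 0.00576) and Cyp7b1 by 0.33 (adjusted p = 0.0193), and 0 rose. None was called with the random effect, without the replicate block or without replicate 3, where 0 rose and 0 fell. When replicate 1 was left out, 2 of the 22 rose and 1 fell, and with array weights 2 rose and 4 fell. Array weights called 695 higher and 1104 lower over all tested probe sets. Igf1, the main growth hormone target of liver, was at 0.11 (adjusted p = 0.710). Of 25 insulin and tyrosine kinase receptors and substrates bound by SOCS proteins, the adaptor Sorbs3 fell by 0.53 (adjusted p = 0.00310) and Csf1r by 0.57 (adjusted p = 0.00200), and 1 of the 25 fell with the random effect. When replicate 1 was left out, 2 of the 25 rose and 2 fell. Csf1r is also 1 of the macrophage markers above.

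For comparison, 9 of 20 TGF-β target and feedback genes rose at 4 h, beside 1.57% of all tested probe sets, and 0 fell. The median of the 20 was 0.51, and Pmepa1 rose by 2.78 and Ccn2 by 1.96. With the random effect 7 of the 20 rose, beside 89 of all 21789 probe sets. These lists were written with earlier results of the data known, so their counts describe the arrays and nothing is held to be particular to a list. The 23 called genes of the 10 lists depended on the replicates, with 24 called without replicate 1, 5 without replicate 2 and 1 without replicate 3.

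**Figure D4:**
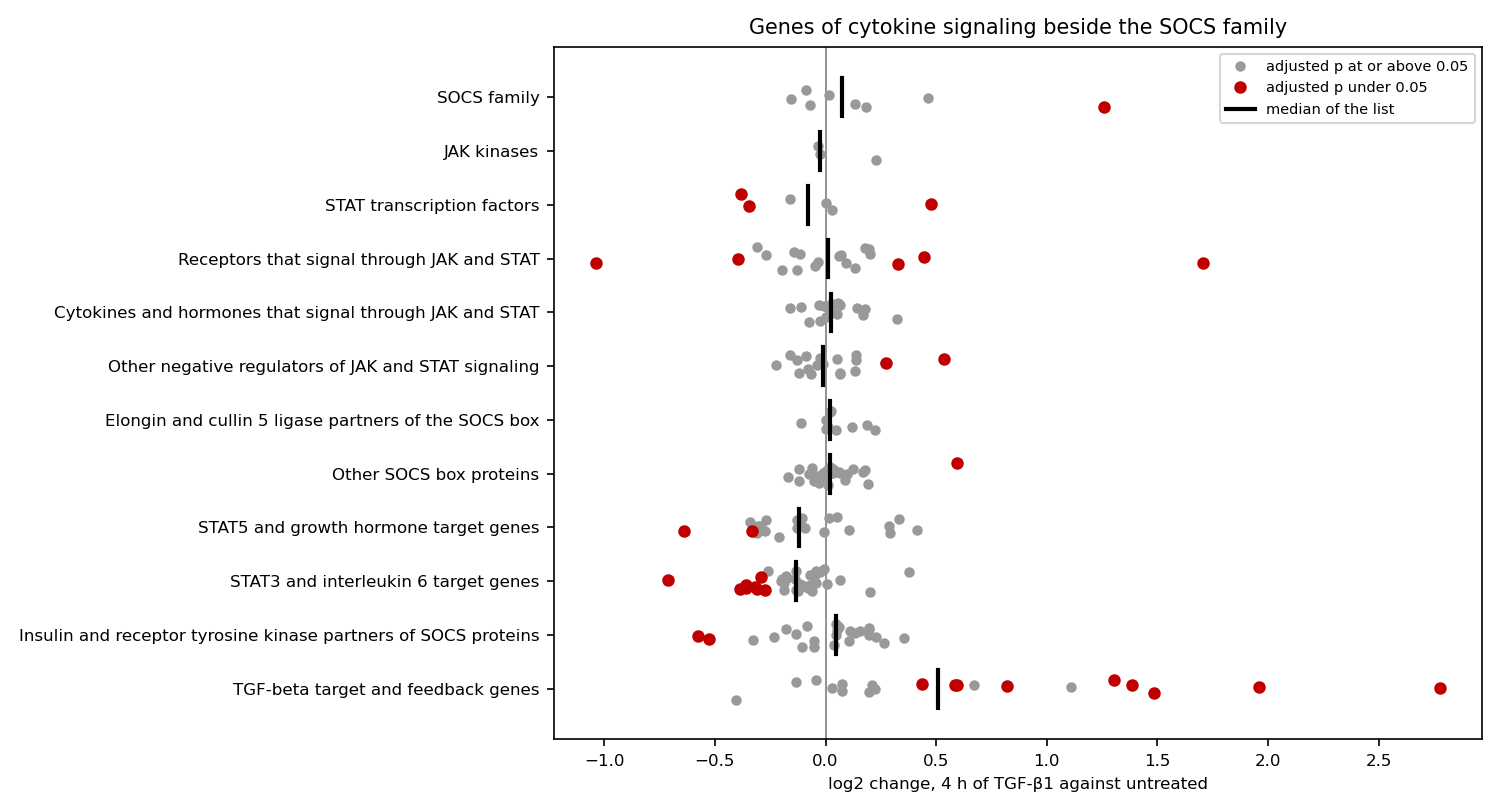
Log2 change at 4 h of TGF-β1 against untreated cells (horizontal axis) for the genes of the SOCS family and 11 lists around it (rows), 1 point per gene given by its brightest probe set, red where the adjusted p is under 0.05, with the median of each list as a black bar. Socs2 is the single red point of the family row, and the red points of the STAT3 and STAT5 target rows lie left of 0.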

How the data were processed

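The deposited values are log2 signals. The submitters' processing notes name RMA, which corrects background, normalizes quantiles and summarizes each probe set, and Affymetrix Power Tools, with versions not given in the sources used here. The study's methods name FARMS summarization and ComBat for its own analysis. Of 35556 probe sets, 21789 had exactly 1 symbol, 1621 had several and 12146 none. No value was missing and 0 pairs of arrays were identical.

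Probe sets were tested in R 4.3.3 with limma 3.58.1, with time and replicate number as factors as in the study's methods, 6 residual and 5.39 prior degrees of freedom, and p-values adjusted over all 21789 (Benjamini-Hochberg). A moderated F test across the time course replaced the betr method of the study. Arrays with the same replicate number were treated as pairs. Deviations from group means correlated within a number at 0.773, 0.555 and 0.644 at the least, and between numbers at -0.812 to 0.722. Only the lowest value within replicate 1, 0.773, lay above the highest value between numbers. These values set replicate 1 apart. Its distance from the rest enters every group mean, so they cannot decide whether the other replicate numbers pair the arrays. The study calls the replicates biological. Array number limits the precision. Lists and gene counts use the brightest probe set of each gene. Named genes are all members, up to 5 called genes per list by adjusted p, up to 3 uncalled of highest signal, all JAKs and STATs analysed here, and the 5 profiles most like each called probe set. Pim1, Il6ra, Elovl3, Hsd3b5, Ghr and the sex-linked and sex-biased genes were chosen after their values were seen. 1 gene and a list named after it are not reported here. Members and lists were chosen with earlier results of these data known.

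Alternatives were no replicate block, a random block, fitting the compared groups separately, including unnamed probe sets, dropping those below the median signal, quantile normalization, median centring, a trended robust prior, array weights, averaged probe sets, the stricter threshold, and leaving out each replicate number and each array.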

Additional observations from a re-analysis of the deposited data

How the results depend on the processing

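The family's counts of 0 called members at 20 min, 2 h and 4 h against 2 h held under every alternative run. At 4 h against control the count of 1 became 0 without the replicate block, where all calls dropped to 12 higher and 19 lower. It also became 0 with all probe sets, where a gene is judged by its brightest probe set. With array weights it became 2, where all calls rose to 695 higher and 1104 lower. Over the leave-out fits it ranged from 0 to 2. Over the time course the count of 1 became 0 under the stricter threshold, all probe sets, no replicate block, a random block and a trended robust prior, and 2 with array weights, and ranged from 0 to 2 when arrays were left out. The 23 called cytokine signaling list genes became 2 under the stricter threshold, 10 with all probe sets, 6 with the compared groups alone, 1 without the replicate block, 6 with a random block and 34 with array weights, and ranged from 1 to 24 when arrays were left out.

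The Socs2 change at 4 h ranged from 0.92 to 1.57 for probe set 10394674 (adjusted p 0.00108 to 0.163, not called in 4 of 25 alternatives, among them all probe sets at 0.0506 and no replicate block at 0.163) and from 0.49 to 0.67 for 10372069 (adjusted p 0.000850 to 0.184, not called in 3 of 24, among them no replicate block at 0.184). Of 294 recomputed 4 h values of members, 18 had the other sign, none of them called: with array weights Socs3 10383010 was at 0.0345, Socs3 10393449 at 0.0272 and Socs6 10460118 at 0.0144, and the leave-out fits ranged from -0.177 to 0.0104 for Socs1, -0.354 to 0.0542 and -0.0428 to 0.0363 for Socs3 10393449 and 10383010, -0.0920 to 0.135 for Socs4, -0.124 to 0.143 for Socs6 10460118 and -0.187 to 0.0132 for Socs7. Cish at 4 h against 2 h ranged from -0.0799 to 0.421 over the leave-out fits. The causes were not tested. The arrays give no counts or detection calls, so a floor for dim probe sets such as Socs6 10460116 is not known.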
